A study of Mus musculus with 6 samples.

Results

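The genes described here are 52 protein-coding regulators of pre-mRNA splicing, measured in mouse gastrocnemius, a fast-twitch calf muscle. They were chosen by name from a table of 54532 genes. The rule took every protein-coding gene whose symbol starts with Srsf (11) or Hnrnp (20), and 21 further genes by symbol. These were Tra2a and Tra2b, the 4 Clk and 3 Srpk kinases, Rbfox1 and Rbfox2, Mbnl1 to Mbnl3, Celf1 and Celf2, Ptbp1 to Ptbp3, and Rbm20 and Rbm24. The set was put forward with the difference between the study's groups already known, so the differences below describe these libraries and are not independent evidence for the choice. The control group held 3 libraries of 3-month-old C57BL/6J mice of genotype Mck cre, in which the muscle creatine kinase promoter drives Cre in muscle. The other group held 3 libraries of mice of the same strain and age, of genotype Mck cre; Tg Glut1-Hk2-Pfkfb3, a transgene named for a glucose carrier, a hexokinase and an activator of glycolysis. Doxycycline at 0.2% was given in water to both groups, starting at 4 weeks. Nothing in the labels states whether replicates are separate animals, so p-values measure only the spread between these samples.

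Splicing removes introns and joins exons, and the choice of exons differs between tissues. SR proteins carry a domain rich in arginine and serine, bind exons and mostly favour their inclusion, and the Tra2 proteins act in a similar way. The Clk and Srpk kinases phosphorylate that domain, which controls where SR proteins sit and how active they are. The hnRNP proteins coat nascent transcripts and often oppose SR proteins at the same exons. Rbfox, Mbnl, Celf, Ptbp, Rbm20 and Rbm24 proteins set much of the muscle-specific exon pattern, and loss of Mbnl function together with raised Celf1 is known from myotonic dystrophy. Many SR genes, Tra2a and Tra2b limit their own output by including an exon with an early stop codon, which sends the transcript to nonsense-mediated decay. The counts used here are totals per gene and do not separate such isoforms.

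Library totals ran from 19546456 to 24665024 counts, and 14973 genes passed the filter on low counts. Fast-muscle markers were abundant in every library, with the 10 genes of the myofibre list summing to between 111600 and 162700 CPM (counts scaled by library size). None of the 3 genes named in the transgene passed the test, and 2 of them averaged lower in the libraries labelled transgenic. Pfkfb3 averaged 1087 ± 503 CPM in the controls and 379.5 ± 227 CPM in the other group (SD, n = 3 each), Slc2a1 16.0 ± 6.30 and 10.4 ± 2.79 CPM, and Hk2 169 ± 16.1 and 230.3 ± 96.1 CPM. Their edgeR adjusted p-values were 0.196, 0.290 and 0.381. The groups are therefore named as the labels name them, and "transgenic" below means labelled transgenic. Control replicate 1 stood apart, with B cell markers summing to 540.8 CPM against 6.94 to 56.7 CPM in the other 5 libraries.

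The 5 members that fell past the threshold, Srsf3, Srsf7, Tra2b, Tra2a and Srsf6, share a feature of their gene structure. The rule did not use that feature, but it chose the SR and Tra2 genes by name, and 8 of those 13 have it. In GENCODE vM21 (GRCm38) each of the 5 has an internal exon that lies inside an intron of the principal coding transcript. This exon holds the stop codon of a transcript annotated for nonsense-mediated decay. The exons are 456 bases in Srsf3 (chr17:29039454-29039909, plus strand), 460 in Srsf7 (chr17:80204622-80205081, minus), 276 in Tra2b (chr16:22258986-22259261, minus), 306 in Tra2a (chr6:49252803-49253108, minus) and 268 in Srsf6 (chr2:162932815-162933082, plus). Each is shown from its first base to its stop codon, 5′ to 3′, with the stop codon in capitals, because this stretch ends the reading frame when the exon is included.
Srsf3: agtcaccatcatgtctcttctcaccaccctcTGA
Srsf7: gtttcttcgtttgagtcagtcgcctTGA
Tra2b: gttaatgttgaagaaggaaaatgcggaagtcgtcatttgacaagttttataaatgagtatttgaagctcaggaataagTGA
Tra2a: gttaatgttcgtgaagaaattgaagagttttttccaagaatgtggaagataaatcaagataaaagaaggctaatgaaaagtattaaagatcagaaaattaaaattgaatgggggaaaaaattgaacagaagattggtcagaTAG
Srsf6: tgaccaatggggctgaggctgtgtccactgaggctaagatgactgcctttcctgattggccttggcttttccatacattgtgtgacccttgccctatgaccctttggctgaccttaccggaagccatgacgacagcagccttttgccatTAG
In Srsf3 and Srsf7 the frame ends within the first 34 and 28 bases of the exon. The coordinates of the Srsf7 gene in GENCODE vM21 differ from the deposited ones. Reads from these exons and from the coding transcripts enter the same gene count, so the values below cannot say which isoform was lower.

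SR and Tra2 genes held all the members that passed the threshold as lower. Of 51 members tested, 5 were lower and 1 was higher in the transgenic libraries (quasi-likelihood test of edgeR, adjusted p under 0.05), where 0.508% of all genes tested were lower and 0.788% higher. Among the 8061 genes that averaged 10 CPM or more, which is closer to the levels of these regulators, 0.67% were lower and 0.918% higher. The median log2 fold change of the 51 was -0.27, against -0.03 over all genes, and 43 of the 51 were below 0, against 53.4% of all genes and 59.5% of those with at least 10 CPM. In 21 members every transgenic library lay below every control, against 13.6% of all genes and 17.3% of those with at least 10 CPM, and in 1 every one lay above, against 13.8% of all genes. Of the 39 members outside SR and Tra2, 31 were below 0 and 8 above, with a median of -0.21. In 12 of the 39 every transgenic library lay below every control, and in 1 every one lay above. Since the set was chosen on this contrast, nothing is read from these shares. In a bulk sample fewer cells of a type and less RNA per cell cannot be told apart. Markers of other cells are given as summed levels, with no test of the sums. The 6 fibroblast genes summed to 644 to 962 CPM in controls and 1027 to 1325 CPM in transgenic libraries. The 5 smooth muscle genes summed to 242 to 290 and 298 to 462 CPM, and the 5 satellite cell genes to 18.5 to 33.6 and 36.0 to 38.0 CPM, so these 3 lists did not overlap between groups. The 6 endothelial genes, at 209 to 303 and 284 to 565 CPM, and the 8 macrophage genes, at 75.6 to 170 and 143 to 189 CPM, did overlap. So did the 5 adipocyte genes, at 106 to 482 and 112 to 417 CPM, and the 5 Schwann cell genes, at 263 to 434 and 249.7 to 420.5 CPM. The 5 erythroid genes, at 46.7 to 83.7 and 45.3 to 76.7 CPM, and the 6 neutrophil genes, at 1.32 to 11.2 and 3.02 to 5.2 CPM, overlapped too. Of these markers only Calcr, a receptor of quiet satellite cells, passed the test, with 0.374 ± 0.0421 CPM in controls and 1.63 ± 0.200 CPM in transgenic libraries (adjusted p = 0.0324). The part of these cells in the differences was not tested.

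**Figure D1:**
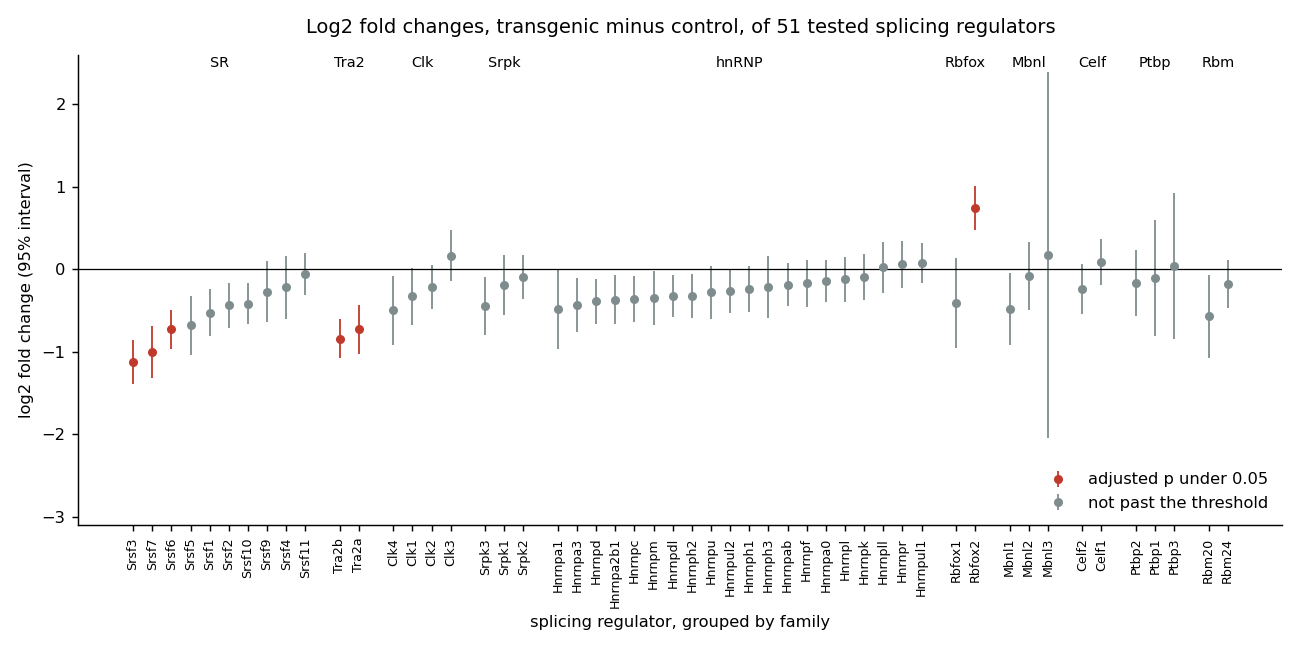
Log2 fold change (transgenic minus control) with its 95% interval for the 51 tested members, grouped by family along the x axis. Red marks an adjusted p under 0.05. The 12 SR and Tra2 genes lie below 0, from -1.12 for Srsf3 to -0.06 for Srsf11, which is at 0.09 with scaling by library totals alone, and Rbfox2 alone passes above 0.

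Srsf3 (ENSMUSG00000071172, chr17:29032628-29043373 on GRCm38), the smallest SR protein, which also acts in mRNA export, had the lowest fold change of the set. Its level was 92.2, 97.5 and 80.7 CPM in control replicates 1, 2 and 3 and 41.0, 41.7 and 41.4 CPM in transgenic replicates 1, 2 and 3. The 3 transgenic values lay within 1 CPM of each other and below every control. On the log2 scale the fold change was -1.12 ± 0.11 (SE; its 95% interval runs from -1.39 to -0.86), and the adjusted p was 0.0188. Srsf3 thus fell by 54.1%. Srsf7 (ENSMUSG00000024097, chr17:80200089-80207305), a close relative of Srsf3 that also carries a zinc knuckle, had 55.2, 53.3 and 45.0 CPM in controls and 23.2, 25.1 and 28.3 CPM in transgenic libraries. Again no transgenic library reached the lowest control, and the log2 fold change was -1.002 ± 0.134 (adjusted p = 0.0250).

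Both Tra2 genes, which encode exon activators related to the Drosophila sex-determination factor Transformer-2, were lower. Tra2b (ENSMUSG00000022858, chr16:22244549-22266005) had 48.8, 48.3 and 48.3 CPM in controls and 26.1, 28.1 and 27.0 CPM in transgenic libraries. Its control values were nearly equal, with a mean of 48.5 ± 0.274 CPM (SD, n = 3), and the log2 fold change was -0.84 ± 0.10 (adjusted p = 0.0210). Tra2a (ENSMUSG00000029817, chr6:49243924-49264033) had 44.6, 39.9 and 36.0 CPM in controls and 24.5, 25.6 and 22.7 CPM in transgenic libraries. The groups did not overlap, and the log2 fold change was -0.73 ± 0.13 (adjusted p = 0.0463). Srsf6 (ENSMUSG00000016921, chr2:162931528-162937121), an SR protein with 2 RNA recognition motifs, had 114, 122 and 110 CPM in controls and 67.7, 70 and 71.8 CPM in transgenic libraries. Its values also did not overlap, and the log2 fold change was -0.73 ± 0.10 (adjusted p = 0.0289).

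**Figure D2:**
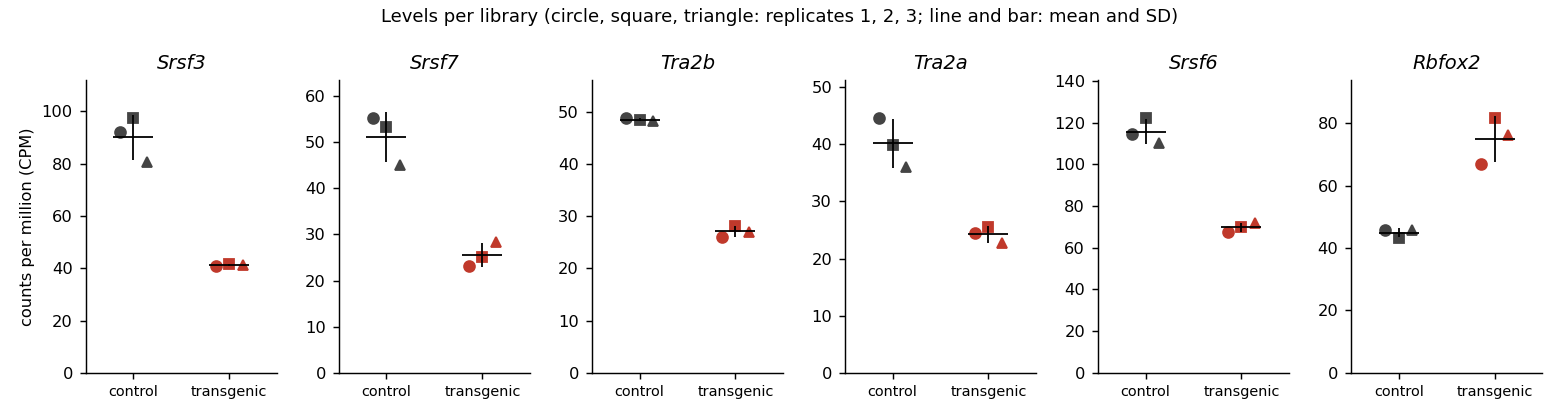
CPM per library for the 6 members past the threshold, with control libraries in grey and transgenic libraries in red, each y axis starting at 0. In 5 genes every transgenic library lies below every control, and in Rbfox2 every transgenic library lies above.

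These calls depended on single libraries. Without control replicate 1 the same 6 members passed, with 15 members lower in all, against 7.06% of all genes, and 1 higher, against 5.91%. Without control replicate 2 or 3, or transgenic replicate 2 or 3, none of the 51 passed in edgeR, and over all genes 0 to 3 passed. In those 4 fits 12 to 16 members were lower at an unadjusted p under 0.05, against 6.11 to 7.86% of all genes, and 1 was higher, against 7.15 to 8.15%. Without transgenic replicate 1 Srsf3 was the only member to pass, among 44 genes in all. With DESeq2 on all 6 libraries 10 members were lower, against 3.22% of all genes, and 1 higher, against 3.89%. The fold changes moved little: over the 6 fits without 1 library that of Srsf3 ran from -1.20 to -1.07, that of Srsf7 from -1.09 to -0.92, and that of Tra2b from -0.87 to -0.80. With library totals as the only scaling, the median of all genes moved from -0.03 to 0.12, 36 of the 51 members were below 0, Srsf3 and Rbfox2 alone passed, and Srsf11 turned to 0.09.

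The other SR genes did not pass the threshold. Srsf5, with the highest mean level per length of the family at 73.0 FPKM (fragments scaled by gene length and library size), had 310, 408 and 359 CPM in controls and 197, 242 and 234 CPM in transgenic libraries (log2 fold change -0.68 ± 0.15, adjusted p = 0.0815). Srsf1, the founding member of the family, had 108, 123 and 97.8 CPM against 72.1, 80.5 and 76.2 CPM (-0.52 ± 0.12, adjusted p = 0.0847). Neither gene's groups overlapped. Srsf2, which binds exonic enhancers and is known for its part in transcription elongation, was at -0.44 ± 0.12, and Srsf10, which acts as a repressor when dephosphorylated, at -0.42 ± 0.11, again with no overlap between groups. Reads of Srsf2 are uncertain, since its exons overlap those of Mettl23 and Mfsd11 on the opposite strand and the strand setting is not given in the sources used here. Without control replicate 1 these 4 genes passed as lower, with adjusted p-values of 0.0188 for Srsf5, 0.0376 for Srsf1, 0.0387 for Srsf2 and 0.0479 for Srsf10. The groups overlapped in Srsf4, Srsf9 and Srsf11. Srsf11 lay closest to 0, with 92.8, 107 and 99.0 CPM in controls and 96.4, 91.2 and 99.5 CPM in transgenic libraries (95% interval -0.31 to 0.19). Srsf12 was barely present, with 3 counts in control replicate 1, 1 in transgenic replicate 3 and 0 in the other 4 libraries. It was the only member that the filter on low counts removed.

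Among the kinases of SR proteins none passed. Clk4 had 76.1, 117 and 112 CPM in controls and 64.6, 75.1 and 76.3 CPM in transgenic libraries. Its log2 fold change was -0.50 ± 0.18, with control replicate 1 inside the transgenic range, and without that library it was -0.67 ± 0.11 (adjusted p = 0.0178). Clk1 was at -0.33 ± 0.15, Clk2 at -0.22 ± 0.12, with no overlap between groups, and Clk3 at 0.16 ± 0.13. The Clk genes thus had fold changes on both sides of 0. Srpk3, the muscle-enriched SR protein kinase on the X chromosome, had 28.1, 24.2 and 24.8 CPM in controls and 15.9, 19.4 and 21.4 CPM in transgenic libraries. Each transgenic value lay below the controls, and the log2 fold change was -0.44 ± 0.15 (adjusted p = 0.166). Srpk1, at -0.19 ± 0.15, and Srpk2, at -0.09 ± 0.12 and 0.05 with scaling by library totals alone, had overlapping groups. Exons of Srpk2 overlap Kmt2e on the opposite strand, and those of Clk3 overlap Edc3 in the same way.

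None of the 20 hnRNP genes passed with all 6 libraries, and 8 of them were lower at an unadjusted p under 0.05, against 10.3% of all genes. In DESeq2 1 of them, Hnrnpa2b1, passed as lower. Their median log2 fold change was -0.25, with 17 below 0 (of which Hnrnpa0, Hnrnpk and Hnrnpl turned above 0 with scaling by library totals alone) and a range from -0.48 for Hnrnpa1 to 0.08 for Hnrnpul1. In 9 of the 20 every transgenic library lay below every control, against 13.6% of all genes tested, and in none did every one lie above. Per length, Hnrnpa1 had the highest mean level of the whole set over the 6 libraries, at 74.1 FPKM, with Srsf5 at 73.0 and Hnrnpa2b1 at 72.5 FPKM. Hnrnpa2b1, a core packaging protein that also binds microRNA precursors, had 504, 574 and 539 CPM in controls and 428, 409 and 417 CPM in transgenic libraries (-0.37 ± 0.13, adjusted p = 0.174). Its groups did not overlap.

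Hnrnpa1, which represses exons and competes with SR proteins, had 201, 331 and 285 CPM in controls and 161, 208 and 218 CPM in transgenic libraries. Control replicate 1 lay within the transgenic range, and without it the log2 fold change was -0.66 ± 0.16 (adjusted p = 0.0374). The table lists 2 processed pseudogenes named after Hnrnpa1, with 0 to 2 counts in any library, and how reads shared with such copies were counted is not given in the sources used here. In that same fit Hnrnpc, which shields uridine-rich tracts, was at -0.43 ± 0.11, Hnrnpd, an AU-rich element binder, at -0.46 ± 0.11 and its paralog Hnrnpdl at -0.40 ± 0.10, each past the threshold as lower. The other 5 genes without overlap were Hnrnpa3, Hnrnph2, Hnrnpul2, Hnrnpm and Hnrnpab, with log2 fold changes from -0.43 for Hnrnpa3 to -0.18 for Hnrnpab. Hnrnpm shares exon bases with March2 on the same strand and Hnrnpab with Phykpl on the opposite one, so both are uncertain. Hnrnpk had 178, 212 and 211 CPM in controls and 183, 191 and 191 CPM in transgenic libraries, and its interval, -0.37 to 0.19, spanned 0. Hnrnpr, Hnrnpll and Hnrnpul1 were above 0, at 0.06 ± 0.12, 0.03 ± 0.13 and 0.08 ± 0.10, with Hnrnpll at -0.09 without control replicate 1.

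Summed per length, SR and Tra2 genes had 231, 267 and 234 FPKM in the controls and 150, 166 and 164 FPKM in the transgenic libraries. The hnRNP genes summed to 501, 604 and 555 FPKM and to 435, 460 and 477 FPKM. Expressed within each library, which takes scaling out, the SR and Tra2 sum was 46.1, 44.2 and 42.2% of the hnRNP sum in controls and 34.5, 36.1 and 34.3% in transgenic libraries. All 3 transgenic shares lay below the lowest control share. Srsf5 alone made up a large part of the first sum, at a mean of 89.8 FPKM in controls and 56.2 FPKM in transgenic libraries.

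**Figure D3:**
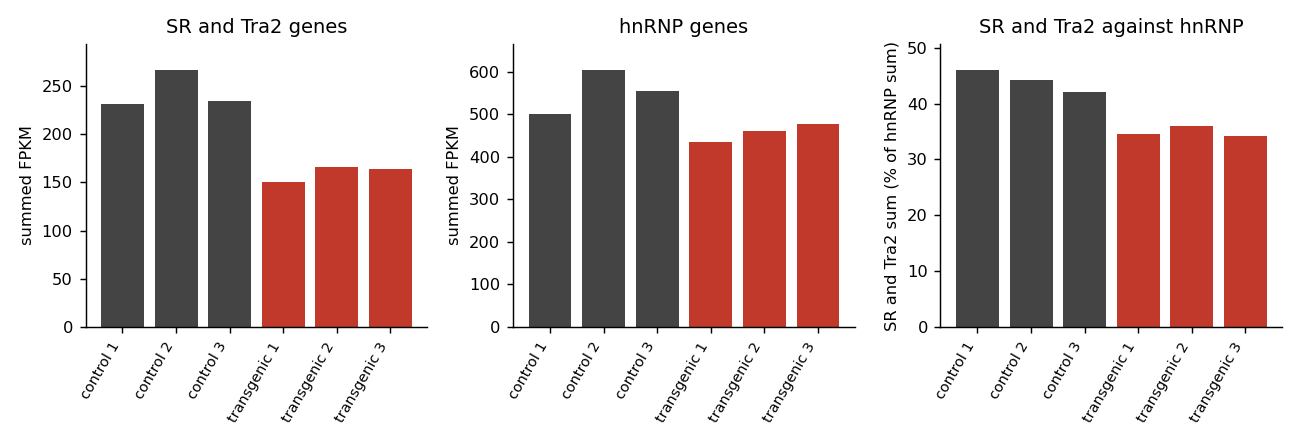
Summed FPKM per library of the 13 SR and Tra2 genes and of the 20 hnRNP genes, and the first as a percent of the second, with controls in grey and transgenic libraries in red. The percent lies between 42.2 and 46.1 in controls and between 34.3 and 36.1 in transgenic libraries.

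Rbfox2 was the only member that passed the threshold as higher. The Rbfox proteins bind the RNA motif GCAUG, and Rbfox1 is the form more restricted to muscle and nerve. Rbfox2 (ENSMUSG00000033565, chr15:77078990-77307004) had 45.7, 43.2 and 46.0 CPM in controls and 67.0, 81.8 and 76.4 CPM in transgenic libraries. Every transgenic library lay above every control, and on the log2 scale the fold change was 0.74 ± 0.11 (its 95% interval runs from 0.47 to 1.01), with an adjusted p of 0.0375. Rbfox2 thus rose by 67.0%. Over the 6 fits without 1 library it ran from 0.67 to 0.83, and it passed in the fit without control replicate 1 only. Rbfox1 had 215, 299 and 299 CPM in controls and 140, 227 and 246 CPM in transgenic libraries. Its groups overlapped, with the lowest value of each in replicate 1, and its log2 fold change was -0.41 ± 0.24 (adjusted p = 0.361). Per length, Rbfox1 was the more abundant, at a mean of 61.4 FPKM in controls and 46.4 FPKM in transgenic libraries, against 5.51 and 9.21 FPKM for Rbfox2.

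The Mbnl proteins promote adult exon patterns in muscle. Mbnl1 had 394, 365 and 478 CPM in controls and 239, 288 and 360 CPM in transgenic libraries. The highest transgenic value lay just under the lowest control, and the log2 fold change was -0.48 ± 0.19 (adjusted p = 0.209). Mbnl2 had 177, 228 and 277 CPM against 232, 203 and 210 CPM, a log2 fold change of -0.08 ± 0.18 that turned to 0.08 without control replicate 3 and to 0.09 with scaling by library totals alone. Of the Celf proteins, which often oppose Mbnl, Celf1 was at 0.09 ± 0.12 with all libraries and at -0.01 without control replicate 1, and Celf2 at -0.24 ± 0.13. Rbm20, which controls titin splicing, had 98.2, 157 and 156 CPM in controls and 74.5, 95.9 and 108 CPM in transgenic libraries. As for Hnrnpa1 and Clk4, control replicate 1 lay within the transgenic range of Rbm20. Its log2 fold change was -0.57 ± 0.22 (adjusted p = 0.199) and, without that library, -0.76 ± 0.16 (adjusted p = 0.0268). Rbm24, needed for muscle exon inclusion, had 216, 250 and 227 CPM against 181, 218 and 214 CPM (-0.18 ± 0.13).

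Ptbp1, Ptbp3 and Mbnl3 were highest in control replicate 1. Ptbp1, which represses muscle and neuronal exons outside those tissues, had 28.2, 13.5 and 14.3 CPM in control replicates 1, 2 and 3 and 20.5, 17.7 and 13.9 CPM in transgenic replicates 1, 2 and 3. Ptbp3, its paralog of blood cells, had 35.8, 12.8 and 15.2 CPM in controls and 27.6, 19.4 and 18.9 CPM in transgenic libraries. Replicate 1 was the highest library of each group for both genes. The log2 fold change of Ptbp1 went from -0.11 ± 0.30 to 0.32 without control replicate 1. That of Ptbp3 went from 0.04 ± 0.38 to 0.64 ± 0.20 without that library (edgeR adjusted p = 0.0705) and to -0.22 without control replicate 2. Both signs thus depended on which library was left out, and neither gene has a direction here. Mbnl3 had 21, 1 and 1 counts in controls and 14, 3 and 10 in transgenic libraries. Ptbp2, the paralog of neurons, had 24.2, 36.4 and 32.0 CPM against 24.4, 28.9 and 29.5 CPM. Exons of Ptbp1 overlap those of Plppr3 and of a noncoding gene on the opposite strand.

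Lymphocyte markers were also highest in control replicate 1. The 8 B cell genes summed to 540.8 CPM there, to 8.22 and 14.6 CPM in control replicates 2 and 3, and to between 6.94 and 56.7 CPM in the transgenic libraries, where Cd22 was at 0. The 9 T and NK cell genes summed to 134 CPM there, to 0.851 and 0.922 CPM in the other controls, and to between 1.12 and 5.62 CPM in transgenic libraries, with Cd3d at 0 in control replicates 2 and 3 and in transgenic replicate 1. Transgenic replicate 1, the next highest library for Ptbp1, Ptbp3 and Mbnl3, had the lowest B cell sum of all libraries, at 6.94 CPM. Its T and NK cell sum was 1.12 CPM, the lowest of the transgenic libraries. The part of lymphocytes in the levels of Ptbp1, Ptbp3 and Mbnl3 was not tested. The 6 members past the threshold kept the direction of their fold changes, and passed, without control replicate 1.

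**Figure D4:**
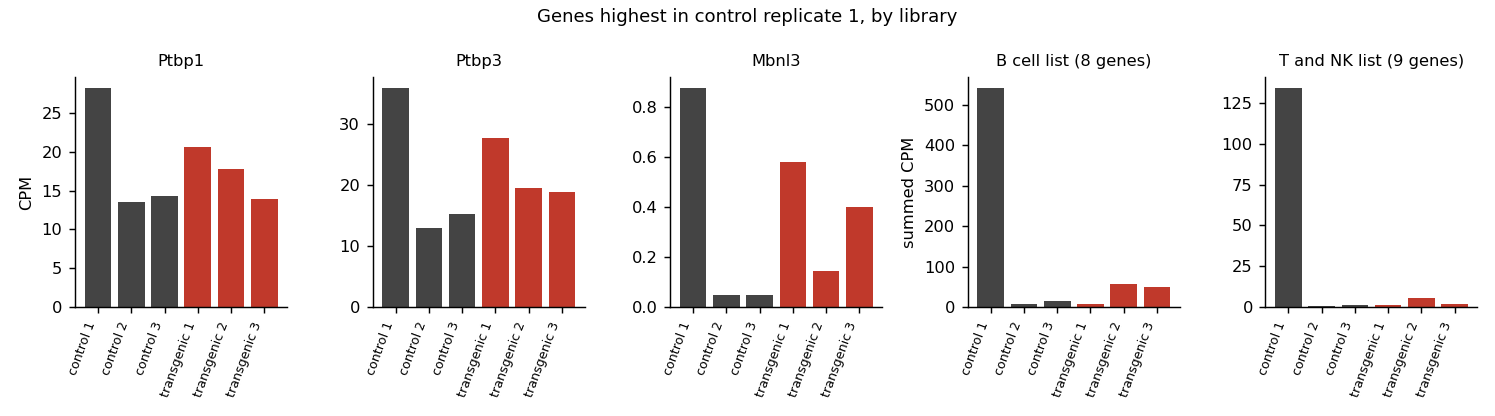
CPM per library of Ptbp1, Ptbp3 and Mbnl3 and summed CPM of the B cell and the T and NK cell lists, with controls in grey and transgenic libraries in red. All 5 panels have their highest bar in control replicate 1, and in Ptbp1, Ptbp3 and Mbnl3 the next highest is transgenic replicate 1.

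The stop-containing exon was compared across the set. It was annotated in 10 of the 52 members, or 19.2%, and in 7.49% of 13092 protein-coding genes tested. All 5 members that fell had one, as did 5 of the 46 other members tested: Srsf4, Srsf9, Srsf11, Hnrnpl and Hnrnpll. Genes with and without the exon overlapped in fold change. Srsf11, with such an exon, was at -0.06 and Srsf9 at -0.27, while Srsf5 and Srsf1, with none by this definition, were at -0.68 and -0.52. Among the non-members that passed as lower, 4 of 59, or 6.78%, had one, near the 7.49% of all genes. At least 1 transcript annotated for nonsense-mediated decay was present in 32 members, or 61.5%, against 28.0% of the protein-coding genes tested. A retained-intron transcript was annotated in 40 members, or 76.9%, against 58.2% of the protein-coding genes tested. All 4 Clk genes, all 3 Ptbp genes and the 2 Tra2 genes had transcripts of both kinds.

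**Figure D5:**
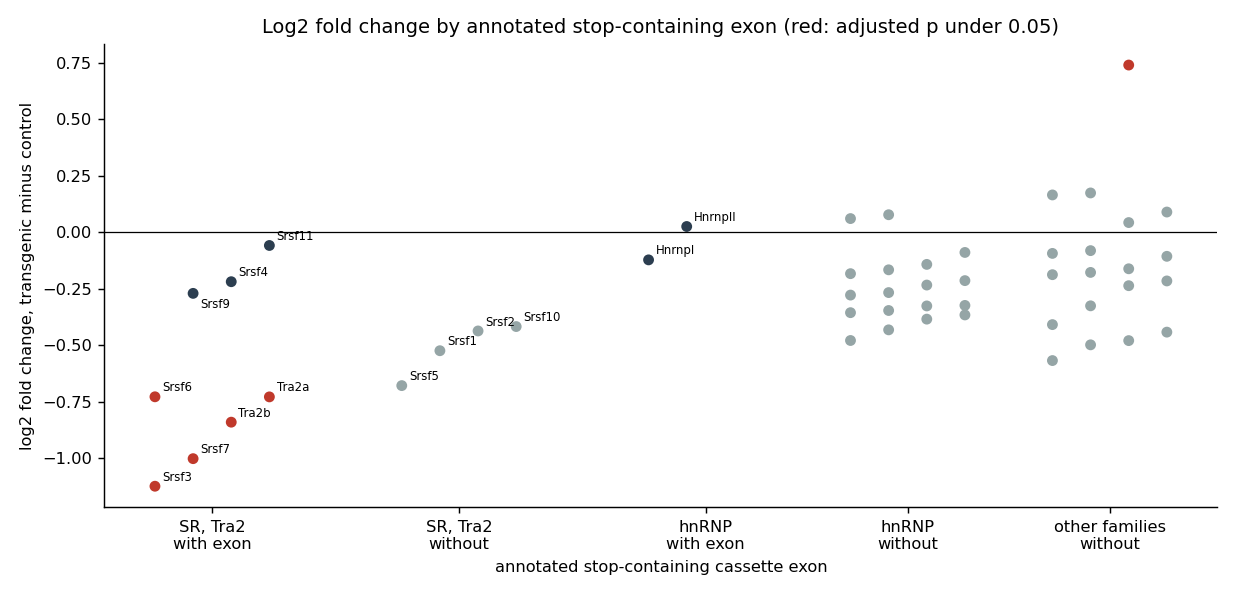
Log2 fold change (transgenic minus control) of the 51 tested members, split by family and by whether GENCODE vM21 annotates an internal stop-containing exon. The 5 red SR and Tra2 genes lie between -1.12 and -0.73 and all carry the exon, while Srsf4, Srsf9 and Srsf11 carry it and lie between -0.27 and -0.06.

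The promoters of the 5 genes that passed the threshold as lower are shown. A promoter window from RefSeq (GRCm38.p6) was found for 46 of the 52 members. The 150 bases that end 33 bases before the RefSeq start are printed 5′ to 3′ on the gene's strand, with matches to the searched motifs in capitals. They lie at chr17:29032478-29032627 (plus) for Srsf3, chr17:80207338-80207487 (minus) for Srsf7, chr16:22266038-22266187 (minus) for Tra2b, chr6:49264085-49264234 (minus) for Tra2a and chr2:162931326-162931475 (plus) for Srsf6.
Srsf3: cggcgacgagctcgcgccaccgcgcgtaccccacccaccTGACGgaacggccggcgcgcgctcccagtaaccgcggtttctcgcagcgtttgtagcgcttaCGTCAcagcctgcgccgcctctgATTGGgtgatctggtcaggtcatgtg
Srsf7: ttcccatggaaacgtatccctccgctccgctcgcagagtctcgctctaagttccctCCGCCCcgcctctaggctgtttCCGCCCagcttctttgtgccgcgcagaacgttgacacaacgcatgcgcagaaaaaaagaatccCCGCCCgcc
Tra2b: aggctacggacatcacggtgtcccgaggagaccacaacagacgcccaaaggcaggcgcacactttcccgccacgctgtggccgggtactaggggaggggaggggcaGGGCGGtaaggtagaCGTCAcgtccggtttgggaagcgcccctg
Tra2a: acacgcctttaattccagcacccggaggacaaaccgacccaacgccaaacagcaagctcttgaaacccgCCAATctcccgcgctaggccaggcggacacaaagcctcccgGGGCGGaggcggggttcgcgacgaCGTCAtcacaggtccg
Srsf6: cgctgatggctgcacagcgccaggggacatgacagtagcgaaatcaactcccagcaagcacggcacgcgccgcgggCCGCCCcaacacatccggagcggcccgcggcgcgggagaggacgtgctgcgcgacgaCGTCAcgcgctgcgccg
Motifs were searched on both strands. TGACG, part of the cyclic AMP response element, was in 4 of the 5 windows, all but that of Srsf7, in 31.8% of the 66 member windows, in 16.3% of the 13171 windows of tested genes and in 11.6% of all 32851 windows of this length. It was added after the sequences were seen. The GC box GGGCGG was in 4 of the 5, in 57.6% of member windows, in 44.1% of the windows of tested genes and in 25.2% of all windows. CCAAT was in 2 of the 5, in 31.8% of member windows, in 26.0% of those of tested genes and in 24.2% of all. None of the 5 held the E-box CACGTG. It was in 6.06% of member windows, in 5.11% of those of tested genes and in 3.76% of all. The TATA box, searched as TATAAA, was in none of the 5. Its shares were 4.55% of member windows, 2.84% of those of tested genes and 6.41% of all. The windows stop 33 bases before the RefSeq start, so a TATA box closer to the start would be missed. These shares therefore do not say whether a gene has one. The whole cyclic AMP element, whose letters TGACGTCA contain the shorter motif, was in none of the 5. Its shares were 1.52%, 1.56% and 1.03% in the same order. The ETS core CCGGAAG was likewise in none of the 5, with shares of 7.58%, 7.33% and 3.95%. A match is only a match of letters, and no binding was measured here.

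The rest of the splicing and decay machinery was examined through 8 lists of 118 other genes, of which 117 were tested. In edgeR 0 passed, 47 were lower at an unadjusted p under 0.05, against 10.3% of all genes, and 3 were higher, against 10.5%. Together with the muscle targets below, 148 such genes were tested. In DESeq2 15 of the 148 passed in either direction, where 3.22% of all genes were lower and 3.89% higher. Without control replicate 1 29 passed in either direction, where 7.06% of all genes were lower and 5.91% higher. In 63 of the 117 genes of the 8 lists every transgenic library lay below every control, against 13.6% of all genes, and in 3 every one lay above, against 13.8%. The median log2 fold change of the 117 was -0.27, against -0.03 over all genes, and 101 were below 0, against 53.4%. In the core spliceosome the 6 U1 genes had a median of -0.32, the 15 U2 genes -0.26, the 11 tri-snRNP genes -0.17, the 14 Sm and LSm genes -0.35 and the 12 late-acting genes -0.28. The genes nearest the threshold in each of these were Luc7l3 (-0.34 ± 0.11) and Snrnp70 (-0.33 ± 0.13), Sf3b5 (-0.55 ± 0.12) and U2af1 (-0.43 ± 0.16), Prpf31 (-0.48 ± 0.12) and Sart1 (-0.33 ± 0.12), Snrpb (-0.44 ± 0.11) and Lsm6 (-0.60 ± 0.15), and Dhx38 (-0.41 ± 0.12) and Crnkl1 (-0.40 ± 0.14). Sf3b5, a small subunit of the U2 branch-site complex, went from 31.2 ± 2.31 to 21.3 ± 0.898 CPM (adjusted p = 0.0724). None of these core genes passed, and 3 were above 0: Lsm5 at 0.81 ± 0.49, Lsm3 at 0.17 ± 0.21 and Eftud2 at 0.01 ± 0.10. These 3 are named for their sign, after the values were seen.

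Nonsense-mediated decay acts on the stop-containing transcripts named above. Of 16 genes of that pathway and of the exon junction complex none passed, 7 were lower at an unadjusted p under 0.05, against 10.3% of all genes, and the median was -0.30. Upf3a, a decay factor, went from 20.6 ± 2.73 to 13.6 ± 1.06 CPM (-0.61 ± 0.15, adjusted p = 0.0924), and Magohb, an exon junction core protein, from 4.21 ± 0.440 to 2.42 ± 0.411 CPM (-0.80 ± 0.22, adjusted p = 0.119). Of 14 genes that act with SR proteins none passed, and the median was -0.22, with 12 below 0 and 2 above. Pnn, an exon junction partner, was at -0.48 ± 0.11 and Tnpo1, a nuclear import receptor, at 0.34 ± 0.11. Of 29 other RNA-binding proteins tested none passed, and the median was -0.28. At an unadjusted p under 0.05 15 were lower, against 10.3% of all genes, and 1 was higher, against 10.5%. In 19 every transgenic library lay below every control, against 13.6% of all genes, and in 1 every one lay above, against 13.8%. Ewsr1 was at -0.48 ± 0.10 and Rbm38, a target of p53 that stabilises mRNAs, at 0.51 ± 0.12. These last 2 had edgeR adjusted p-values of 0.0670 and 0.0847.

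Transcripts known to be spliced by these regulators in muscle were also measured, as totals per gene. Of 31 such genes 1 passed, as higher, where 0.788% of all genes tested were higher and 0.508% lower. Camk2d, a calcium and calmodulin-dependent kinase whose exons are regulated by Rbfox, Mbnl and SR proteins, averaged 35.7 ± 4.09 CPM in controls and 59.2 ± 2.83 CPM in transgenic libraries. It rose by 0.73 ± 0.12 on the log2 scale (adjusted p = 0.0444). Nrap, a protein of the muscle attachment site, was at -0.75 ± 0.22 (adjusted p = 0.131). The median of the list was -0.14. In 4 of the 31 every transgenic library lay below every control, against 13.6% of all genes. In 1 every one lay above, against 13.8%. These values give the amount of each gene's RNA and not the share of any exon.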

How the data were processed

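Gastrocnemius RNA was sequenced in 6 libraries, 3 per group, grouped by sample title and genotype label. HISAT2 2.0.5, featureCounts 1.5.0-p3 and GRCm38 are named in the submitters' processing notes, with no settings. The authors deposited whole-number counts per gene and FPKM values. From the values, FPKM is the count divided by gene length and by a scaled library size. The test on counts was that of edgeR 4.0.16 under R 4.3.3 (TMM, filterByExpr, quasi-likelihood test with legacy = FALSE), adjusted by Benjamini-Hochberg over all 14973 genes at 0.05. CPM values use TMM library sizes. Errors after log2 fold changes are SEs and other errors SDs (n = 3). A count of 3 equals 0.120 to 0.145 CPM. The steps were run on simulated counts in which no library stood apart, so that run does not bear on the dependence on single libraries.

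Members and lists were chosen with earlier results of these data known. Named members were those past the threshold, those whose groups did not overlap, and the extremes and most abundant of each family. Of the lists, those past the threshold or the 2 smallest p were named. Others were named after their values were seen. Alternatives used DESeq2 1.42.0, limma 3.58.1 (voom, log2(FPKM + 1), log2(FPKM + 0.1)), other scalings and filters, a replicate block and fits without each library. Stop-containing exons came from GENCODE vM21, where 50 of 52 members had the deposited coordinates, all but Srsf7 and Hnrnpul2. The annotation release behind the counts is not given in the sources used here.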

Additional observations from a re-analysis of the deposited data

How the results depend on the processing

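All 6 members past the threshold kept their direction in each of the 15 alternatives. The median of the 51 members was -0.113 with scaling by library totals alone, where 1 member passed as lower and where 7 members turned above 0: Ptbp2 (0.01), Srsf11 (0.09), Srpk2 (0.05), Mbnl2 (0.09), Hnrnpa0 (0.001), Hnrnpk (0.07) and Hnrnpl (0.03). With no filter beyond 1 count 124 genes passed, 3 members as lower, 0 as higher and 0 of the 148 other splicing genes and muscle targets, here called other splicing genes. DESeq2 gave 1065 of 14973 genes, 10 members as lower and 15 of the 148 other splicing genes. limma on log2(FPKM + 1) gave 112 genes, limma on log2(FPKM + 0.1) gave 121, both with 0 members as higher and 0 other splicing genes, and limma-voom gave 0 other splicing genes. Over the 6 fits without 1 library the genes called ran from 0 to 1981, members called lower from 0 to 15, members called higher from 0 to 1 and other splicing genes from 0 to 29. Each highest count was without control replicate 1. In the fit without control replicate 3, with 0 calls by edgeR, 2166 genes had an unadjusted p under 0.05.

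Over those 6 fits the log2 fold change ran from -0.01 to 0.15 for Celf1, from -0.32 to 2.9 for Mbnl3, from -0.29 to 0.32 for Ptbp1 and from -0.22 to 0.64 for Ptbp3. These 4 turned sign, as did Hnrnpll (-0.09 without control replicate 1) and Mbnl2 (0.08 without control replicate 3), 6 of the 51 members in all. The cause was not tested.

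With the replicate number as a block edgeR called 5 genes, 0 members as lower, 0 as higher and 0 other splicing genes, with 24 members lower at an unadjusted p under 0.05, against 10.6% of all genes, and 1 higher, against 11.0%. Same-numbered libraries had deviations correlated at -0.0243, -0.168 and 0.156, so the numbers were not taken to pair the libraries.

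With 3 libraries a group, a gene that missed the threshold is not shown to be equal between groups.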
